A study of Drosophila melanogaster with 29 samples.

Results

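Adult males of the France strain of Drosophila melanogaster were compared with adult males of 4 other laboratory strains. The France group is formed by the 3 arrays whose labels give the genotype France and the gender Male, out of 29 arrays in all. It was set against the 12 male arrays of Antigua, Glasgow, Cambridge and Hikone, with each strain weighted equally through its group mean. All flies were reared at 25 °C and taken 0 to 6 h after eclosion, and none carried a transgene or received a treatment. France is a wild-type stock of the Kerbiniou collection, Antigua is a stock of Caribbean origin, Glasgow and Cambridge are Oregon-R stocks kept at different places, and Hikone is a stock of Japanese origin whose label calls it Oregon R. Females of the same strains, collected as virgins, gave 3 arrays for France and 11 for the other strains, since 1 Hikone female sample had been discarded by the authors. Each array was made from RNA of a separate group of flies, and each strain is 1 stock. A difference therefore describes the arrays of this stock and cannot be extended to French flies at large.

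Freshly eclosed adults are still finishing their cuticle, which hardens and darkens in these hours, and they carry remains of the larval fat body that feed the young fly. Males also carry the testis and the accessory gland, which makes the proteins of the seminal fluid. Enzymes that break down foreign compounds, peptides of the immune response and proteins of the seminal fluid belong to gene families known to vary among wild-type stocks of this species.

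Values are log2 intensities of probe sets (groups of short probes that together read a transcript) from the Affymetrix Drosophila array, so a difference of 1 is a 2-fold difference. No detection call was used, so where 1 group lies at the dim end a difference may understate the change in RNA. The probes read a fixed sequence, and sequence differences between strains under them were not tested for any gene. A loss of signal is therefore not shown to be a loss of RNA. Of 14010 probe sets, 44 controls were left out and 13966 were tested, of which 12442 carried a single gene symbol. A probe set was called when limma's moderated test, fitted over all 29 arrays, gave a Bonferroni adjusted p below 0.01 and the difference exceeded 2-fold. It is described as set apart when, in addition, all 3 France arrays lay above, or all below, all 12 other male arrays. The 3 France male arrays correlated with each other at 0.993 to 0.995 and their medians lay between 4.47 and 4.49, inside the range of 4.30 to 4.61 over all arrays. The median difference over all probe sets was -0.13, with 4380 probe sets positive and 9585 negative, so small negative differences are the background of this comparison. With quantile normalization repeated the median was -0.05, so the size of this background, and with it the unadjusted counts of lower genes, depends on the scaling.

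Defining markers matched the label of adult males. The mean of 8 testis markers lay between 8.95 and 9.38 on the France arrays, against 9.07 to 9.74 on the other male arrays, and 8 markers of ovary and yolk lay between 3.19 and 3.47, against a median of 3.09 in the other males. Cambridge male replicate 1 stood apart, with ovary and yolk markers at 8.76, as did Glasgow male replicate 1 in 2 larval fat body markers (9.37, against a median of 4.80 over the 12 arrays) and Glasgow male replicate 2 in 3 muscle markers (11.17, against 12.59). In RNA of entire flies, fewer cells of a type and less RNA per cell cannot be told apart. The labels name no processing batch. Serial numbers in the sample titles run in a separate block for each strain. A difference of stock and one of collection or array handling therefore cannot be told apart.

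In France males, 254 probe sets were called higher (1.82% of those tested) and 116 lower (0.831%), together 370 (2.65%). Of these, 221 were set apart as higher (1.58%) and 90 as lower (0.644%). The 221 held 197 distinct genes and the 90 held 84. Median differences were 1.48 and -1.47. Without France male replicate 1 the number called higher was 167. Without Cambridge male replicate 1, 211 probe sets were set apart as higher and 95 as lower. Without Glasgow male replicate 1 these were 206 and 92, and without Glasgow male replicate 2 they were 209 and 91. A complete separation of the arrays, whatever the test gave, was found for 861 probe sets in the higher direction (6.16%) and 1232 in the lower direction (8.82%). The smallest differences inside the limit were 1.01 for Dhpr and -1.04 for Rpt4R, and just outside it lay CG31659 at -0.998.

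**Figure D1:**
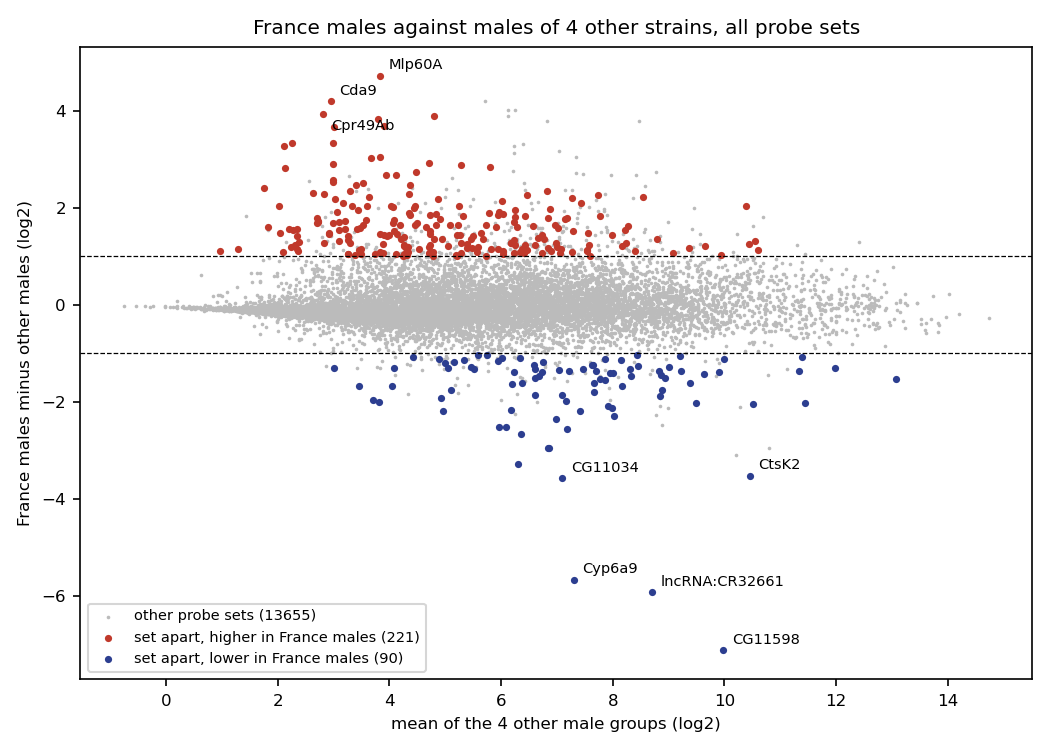
Each point is a probe set, with the mean of the 4 other male groups on the horizontal axis and the difference of France males from it on the vertical axis, both log2. Red and blue points are the 221 and 90 probe sets set apart, dashed lines mark a 2-fold difference, and CG11598 at -7.13 and Mlp60A at 4.72 are the extremes among them.

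By the same rule, taking the males of each strain in turn against the remaining 4, 311 probe sets were set apart in France (2.23%), beside 83 in Antigua (0.594%), 111 in Glasgow (0.795%), 211 in Cambridge (1.51%) and 120 in Hikone (0.859%). These comparisons share arrays, so only the counts are given. Set against single strains, France males differed at 270 probe sets from Hikone males (1.93%), 338 from Glasgow males (2.42%), 352 from Antigua males (2.52%) and 612 from Cambridge males (4.38%). Of the probe sets set apart in France, 63 of 221 and 31 of 90 also had a Bonferroni adjusted p below 0.01 by limma against each of the 4 strains alone. No fold limit was set for these 2 counts. The nearest strain was Hikone for 97 of the 221 and Glasgow for 31 of the 90, and Cambridge was the farthest for 106 and 51. The Cambridge male mean includes replicate 1, with its raised ovary and yolk markers, and these arrays correlated at 0.975 at the lowest. The part of that array in the Cambridge counts was not tested.

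The deepest loss of signal was at CG11598, a gene of the lipase family on 3R. France males had 2.87, 2.88 and 2.82, and the other males had 9.48 at the lowest, 9.78 at the median and 10.84 at the highest. The groups were separated by more than 6 log2 units with no array between them. The difference was -7.13 ± 0.04 (SE of the fit), with an adjusted p of 2.44e-29. France males lay at the level of the females, in which the gene was low in every strain, at 2.83 to 2.91 in France and 2.90 to 3.21 elsewhere. The female difference of -0.12 was not called.

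A similar pattern was seen at lncRNA:CR32661, an annotated non-coding RNA on the X chromosome. France males had 2.84, 2.78 and 2.76, and the other males had 7.57, 8.72 and 9.63 at the lowest, median and highest. No other male array came near the France values, and the difference was -5.92 ± 0.11, with an adjusted p of 2.32e-19. Females of all strains were low here too, at 2.91 to 3.08 in France and 3.05 to 3.28 elsewhere, and their difference was -0.21.

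Cyp6a9, a cytochrome P450 of the subfamily linked to detoxification, was set apart in males and low in France females as well. France males had 1.66, 1.64 and 1.59, against a lowest value of 6.09, a median of 7.50 and a highest of 8.02 in the other males. The difference was -5.67 ± 0.22 in males, with an adjusted p of 4.48e-13. France females had 1.76 to 1.81, against 4.95 to 7.50 in the other females, with a difference of -4.52 and an adjusted p of 5.24e-11.

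CG11034 had 3.28, 3.71 and 3.58 in France males, against 6.85, 7.07 and 7.40 at the lowest, median and highest of the other males. CtsK2, which encodes a cathepsin-like cysteine protease, had 6.86, 6.88 and 7.04 in France males, against 9.50, 10.44 and 11.37. trx, or trithorax, a histone methyltransferase that keeps homeotic genes active, had 3.71, 4.78 and 3.19 in France males, against 6.29, 6.93 and 7.25. None of the 3 genes overlapped between the groups, although trx varied widely among the France arrays. Their differences were -3.57, -3.52 and -2.95, and all were called in females too, at -3.05, -2.52 and -2.52.

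Among the other leading genes that were lower, Slc45-1, a sugar transporter of the SLC45 family, had 3.01, 3.01 and 3.04 in France males, against 5.27, 6.41 and 7.05, with a difference of -3.29. Ms, the precursor of the neuropeptide myosuppressin, which quietens visceral muscle, had 6.19, 5.30 and 5.99, against 7.17, 7.94 and 8.37, with a difference of -2.08. CG12376, CG11815, CG15548, CG42564, CG7694 and CG6071, to which no role is given here, had differences of -2.52, -2.52, -2.36, -2.18, -2.03 and -1.77. None of these genes was called in females. Uhg1, a host gene of small nucleolar RNAs chosen after its values were seen, was lower in both sexes, with a difference of -2.66 in males and -4.47 in females.

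The largest difference among the genes set apart as higher was at Mlp60A, a muscle LIM protein found at the Z-discs of muscle. France males had 8.48, 8.59 and 8.61, and the other males had 3.42, 3.61 and 4.80 at the lowest, median and highest. The difference of 4.72 ± 0.24 had an adjusted p of 8.09e-11. France females had 6.34 to 7.54 against 3.42 to 3.82 in the other females, and the gene was called there too, at 3.46. It was the only called gene of 24 measured in a list of muscle contraction genes, whose median difference was 0.24. The mean of 3 general muscle markers was 12.94 to 12.98 on the France male arrays, against 11.17 to 12.80 on the other male arrays, and its part in the result was not tested.

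CG10208, to which no role is given here, was even across the France arrays. France males had 6.93, 6.87 and 6.87, against 3.61, 3.74 and 4.32 in the other males, a difference of 3.05 ± 0.05 with an adjusted p of 4.00e-20. France females were as high, at 7.17 to 7.35 against 3.62 to 3.99, with a difference of 3.51. Srg1 was also higher in both sexes, by 3.34 in males and 2.41 in females. CG7567 was higher by 3.67 in males and 4.11 in females, and its call in males was lost without France male replicate 3 (adjusted p = 0.0105).

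**Figure D2:**
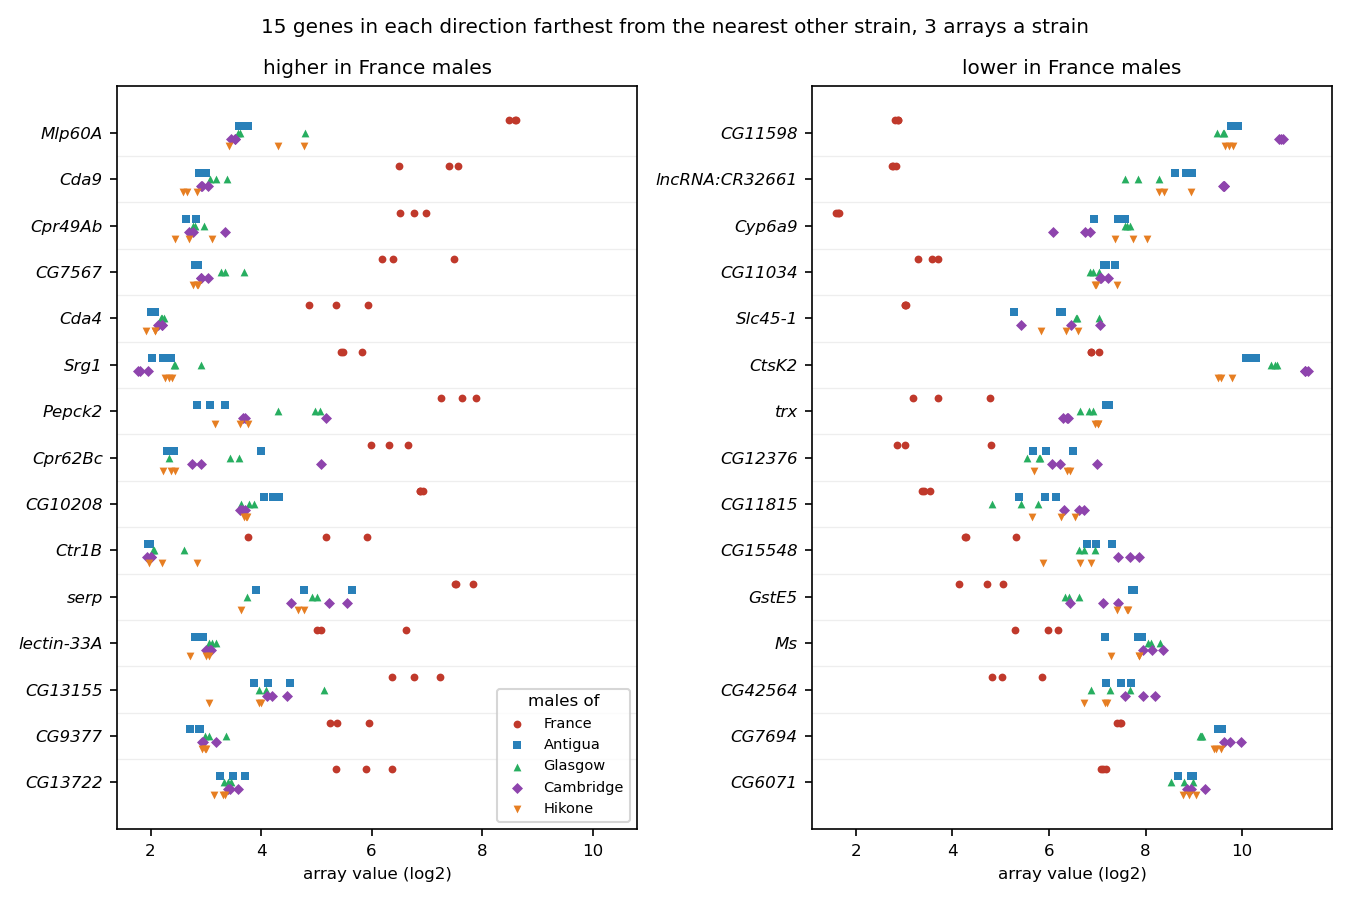
Array values (log2) of the 15 genes in each direction that lay farthest from the nearest other male group, with 3 points per strain and France in red. In every row all France points lie beyond all others, from CG11598 at 2.82 to 2.88 in France to Mlp60A at 8.48 to 8.61.

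Several of the leading genes that were higher act on chitin or belong to the cuticle. Chitin deacetylases trim acetyl groups from chitin, the polymer of the cuticle and the tracheal lining. Of the 5 measured, a family assembled after values were seen, 4 were called higher and 0 lower, beside 1.96% and 0.996% of all 10843 genes. At an unadjusted p below 0.05, which takes in 1913 genes in the higher and 4294 in the lower direction, the family had 5 and 0. The shares over all genes are the background for the calls in every list and family. Cda9 had 7.56, 6.50 and 7.39 in France males, against 2.59, 2.93 and 3.38 in the other males, a difference of 4.20 ± 0.23. It was also called in females, at 3.41.

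The other chitin deacetylases were less uniform. Cda5 had a difference of 1.77. serp, or serpentine, had 7.84, 7.50 and 7.52, against 3.64, 4.77 and 5.65, a difference of 2.92 whose call (adjusted p = 0.00766) was lost in 13 of the 15 fits that each left out 1 male array, with an adjusted p up to 0.222 without France male replicate 1. The call of Cda5 was lost without France male replicate 1 or 2, at an adjusted p up to 0.0509. Probe sets of the same gene disagreed at Cda4, where the 4 differences were 3.27, 1.22, 0.20 and -0.07, and at serp, where the second probe set gave 0.16. verm, the companion of serp, had a difference of 2.10 and was not called. Probes on such an array read a fixed sequence, and sequence differences between strains under the probes were not tested.

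Of 15 chitinases and imaginal disc growth factors, likewise assembled after values were seen, 4 were called higher, beside 1.96% of all genes. A positive difference was seen for 14, beside 3711 of 10843, of which 4932 stayed under 5 in every male group. At an unadjusted p below 0.05, 11 were higher and 1 lower. Cht8 had 5.79, 5.79 and 5.99 in France males, against 3.09, 3.40 and 4.60, a difference of 2.22. Cht4, Idgf5 and Cht2 had differences of 1.70, 1.68 and 1.19. The calls of Cht4 (without France male replicate 2, adjusted p = 0.0207) and Cht2 (without replicate 1 or 3, up to 0.0311) were lost when single arrays were left out.

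Cuticle proteins, most of which bind chitin through the Rebers and Riddiford motif, build the cuticle together with chitin. In a list of 67, which also holds Tweedle proteins, 6 were called higher and 1 lower, 8.96% and 1.49%. The median difference of the list was -0.14, close to -0.12 over all genes, and 51 of the 67 stayed under 5 in every male group. Cpr49Ab had 6.98, 6.51 and 6.76 in France males, against 2.45, 2.77 and 3.34, with a difference of 3.94 ± 0.17. Cpr62Bc had 6.65, 6.32 and 5.98, against 2.23, 2.60 and 5.08, with a difference of 3.33 that was not called without France male replicate 1 (adjusted p = 0.0149).

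Cpr62Bb, Cpr97Ea, Cpr47Ea and Cpr49Ah followed at 2.52, 2.42, 2.11 and 1.95. Cpr72Ec went the other way, with 4.31, 3.61 and 3.77 in France males, against 5.34, 7.15 and 8.21, a difference of -2.96. It was lower in France females too, by 2.59 on the log2 scale. Some abundant cuticle genes had large differences with wide spread that did not pass the test, such as Acp65Aa at 4.03 ± 0.94 and Cpr100A at 2.71 ± 0.71. Of 24 tanning and pigment genes only yellow-e was called, at 1.68, and the call was lost when any of the 3 France arrays was left out (adjusted p up to 0.201).

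Immune genes were higher in part. Of 8 antimicrobial peptide genes measured, Def and AttD were called higher and 0 lower by limma (6 and 1 at an unadjusted p below 0.05), and the median difference was 1.98. Def, or defensin, had 9.07, 8.41 and 8.47 in France males, against 4.17, 5.77 and 7.15, a difference of 2.85. AttD, an attacin without a signal peptide, had 6.10, 6.44 and 5.13, against 2.12, 2.88 and 4.11, a difference of 2.90. Both were separated from all other male arrays, and Def was also called in females, at 2.24, with France at 9.98 to 10.14 inside a range of 6.16 to 10.16 in the other females.

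The other peptide genes varied more. DptB had 10.50, 10.07 and 9.86 in France males, against 2.58, 6.68 and 8.73, but its difference of 4.02 ± 0.68 was not called (adjusted p = 0.115). Mtk at 2.71 and Drs at 1.26 were not called, and Drsl5 was at -1.21. Of 10 Bomanins and related peptides induced through the Toll pathway, 0 were called by limma (4 higher and 0 lower at an unadjusted p below 0.05), with a median of 0.33. Of 28 genes of immune recognition and signalling, psh was called, a serine protease upstream of Toll. Its arrays overlapped with the other males, at 4.46, 3.73 and 4.57 against 2.47, 2.93 and 3.84, and the difference was 1.26. TotB and vir-1, the measured stress peptides of the JAK/STAT pathway, had differences of -0.29 and 0.71 and were not called.

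In a list of 19 thioester proteins, nimrods and haemocyte genes, 5 were called higher (26.3%) and 0 lower by limma (9 and 6 at an unadjusted p below 0.05), with a median of 0.04. Tep3, a thioester protein of the complement-like family, had 6.08, 6.28 and 5.84 in France males, against 3.71, 4.10 and 4.30, a difference of 2.04 ± 0.09. France females had 3.79 to 4.18, against 3.78 to 4.09 in the other females. vkg and Col4a1, which encode the collagen IV chains and lie next to each other on 2L, had differences of 2.21 and 1.76. vkg had 9.99, 9.17 and 9.28 in France males, against 6.41, 7.18 and 8.34.

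SPARC, a collagen-binding protein of basement membranes, had a difference of 1.63, and Hml, or hemolectin, the clotting factor of haemocytes, one of 1.82. These calls were lost in 9 and 8 of the 15 fits that left out 1 male array, with an adjusted p up to 0.214 and 0.268 without France male replicate 1. Among 4 haemocyte markers, Hml was the only called gene, and Pxn, or peroxidasin, was at -0.86. Pxn had 5.73, 5.43 and 5.63 in France males, near the median of 5.76 in the other males. The highest other male group had a mean of 8.81. The mean of the 4 markers lay between 5.66 and 6.26 on the France arrays, against 5.01 to 6.07 on the other male arrays. Its part in these differences was not tested. In a family of 11 basement membrane genes assembled after values were seen, LanA at 1.02 was called beside vkg, Col4a1 and SPARC. At an unadjusted p below 0.05, 6 were higher and 2 lower. The median was 0.45, and the call of LanA was lost in 5 of the 15 fits (adjusted p up to 0.0931, without France male replicate 3; lowest difference 0.96).

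**Figure D3:**
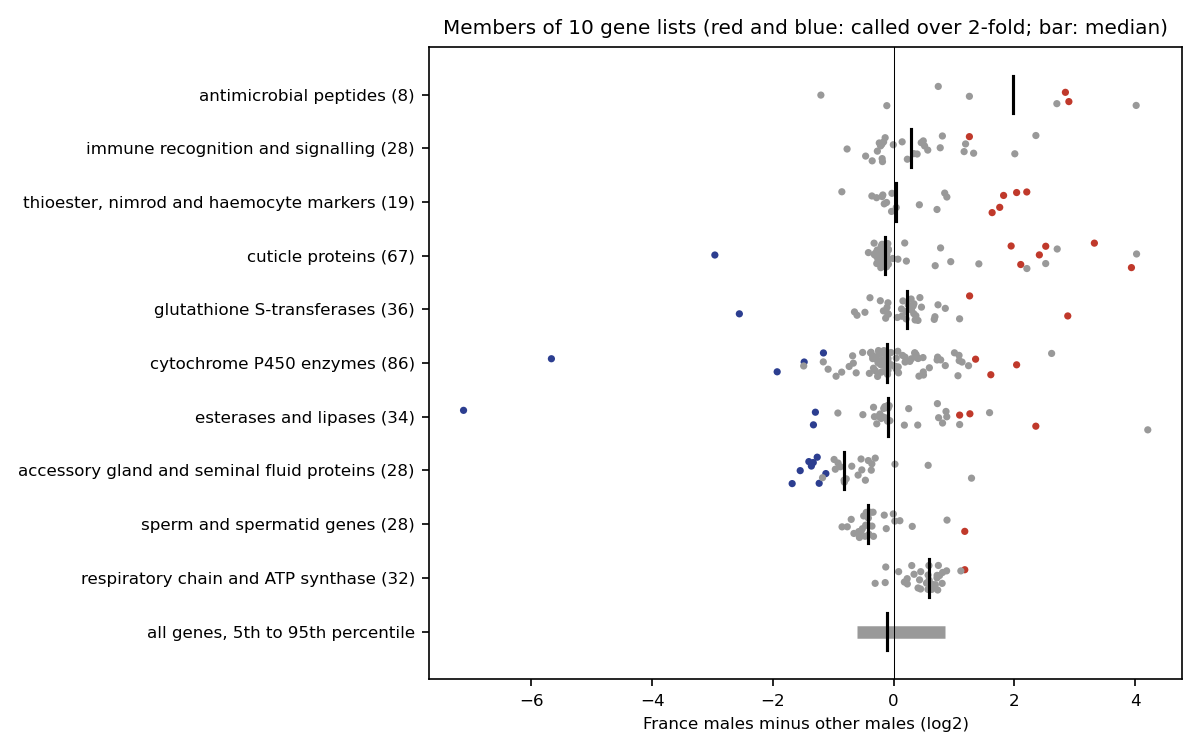
Differences of France males from the other males (log2) for each measured member of 10 gene lists, with red and blue for members called higher and lower, and a bar at each median. The bottom row gives the range from the 5th to the 95th percentile of all genes, and the seminal fluid list has its median at -0.82 and 8 blue points.

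Among genes of detoxification, calls were made in both directions. Of 86 cytochrome P450 genes 3 were called higher and 4 lower (3.49% and 4.65%, beside 1.96% and 0.996% of all genes), and 22 and 37 had an unadjusted p below 0.05. Cyp6g1, known for its part in resistance to insecticides, had 12.41, 12.46 and 12.38 in France males, against 9.05, 10.50 and 11.38 in the other males. The difference of 2.04 was called, but not without France male replicate 1 or 2 (adjusted p up to 0.0124). In females the difference was 3.34, from 11.71 to 12.06 in France against 7.0 to 10.58 in the other strains. Cyp4g15 was higher by 1.36.

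Cyp28d1 was higher by 1.61 with overlapping arrays, and its call was lost in 12 of the 15 fits without 1 male array (adjusted p up to 0.204, without France male replicate 1). Cyp12d1-d had 3.05, 2.99 and 2.96 in France males, against 3.10, 4.17 and 8.22, with a difference of -1.93. Without the Cambridge group in the mean this became -0.97 and was not called (adjusted p = 0.134). Cyp28a5 at -1.48 and Cyp6a14 at -1.16 overlapped with the other males, and their calls were lost in 3 and 11 of the 15 fits (adjusted p up to 0.0354 and 0.201, without France male replicates 2 and 3).

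Of 36 glutathione S-transferases, GstD2 and Mgstl were called higher and GstE5 lower (5.56% and 2.78%, beside 1.96% and 0.996% of all genes). At an unadjusted p below 0.05, 18 were higher and 9 lower. GstD2 had 8.30, 7.98 and 8.21 in France males, against 4.60, 4.93 and 6.93, a difference of 2.89 that was also called in females, at 1.76. GstE5 had 4.72, 5.04 and 4.13, against 6.34, 7.41 and 7.77, a difference of -2.56. Mgstl, a microsomal enzyme, was higher by 1.26, and its 3 probe sets gave 1.26, 1.2 and 1.03. Among 34 esterases and lipases, CG6283, alpha-Est8 and alpha-Est9 were called higher, at 2.36, 1.26 and 1.09, and CG11598, Jhedup and CG17097 lower. These were 8.82% in each direction, and 12 were higher and 13 lower at an unadjusted p below 0.05.

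CG6283 overlapped with the other males, whose arrays ran from 1.83 to 9.69, and its call was lost in 10 of the 15 fits (adjusted p up to 0.095, without France male replicate 1). The calls of alpha-Est8 (without France male replicate 1 or 3, adjusted p up to 0.0715) and alpha-Est9 (without replicate 3, lowest difference 0.85) were also lost when single arrays were left out. Jhedup, a duplicate of the juvenile hormone esterase gene, had a difference of -1.33, and CG17097, a lipase gene, one of -1.30. Of 17 UDP-glycosyltransferases, 2 were higher and 13 lower at an unadjusted p below 0.05. Only Ugt35C1 was called (5.88%, beside 0.996% of all genes called lower), at -1.84, with overlapping arrays. It was not called without France male replicate 1 or 3 (adjusted p up to 0.0106).

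Genes of storage and of carbon metabolism were chosen as families after values were seen. Pepck2, a phosphoenolpyruvate carboxykinase, had 7.63, 7.89 and 7.25 in France males, against 2.85, 3.70 and 5.18, a difference of 3.69 ± 0.41. In the family of 17 genes of fat and carbohydrate stores, 5 were called higher and 0 lower (9 and 0 at an unadjusted p below 0.05), with a median of 0.40. Lsd-1, a perilipin that coats lipid droplets, had 10.20, 9.79 and 10.04, against 6.70, 7.82 and 8.50. Its difference was 2.27 in males, not called without France male replicate 1 or 3 (adjusted p up to 0.0217), and 2.56 in females.

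The mean of 2 larval fat body markers was 4.79 to 5.79 on the France male arrays, against 3.97 to 9.37 on the other male arrays, and its part in these differences was not tested. AGBE, the glycogen branching enzyme, LpR2, a lipophorin receptor, and mdy, a diacylglycerol acyltransferase, had differences of 1.97, 1.84 and 1.23. In a family of 10 genes of glycine and one-carbon metabolism, 5 were called higher and 0 lower (9 and 1 at an unadjusted p below 0.05), with a median of 1.16. Nmdmc, a mitochondrial enzyme of folate metabolism, had 7.88, 8.70 and 8.20 in France males, against 5.93, 6.37 and 7.0, a difference of 1.84, and CG3999, Agxt, Shmt and CG7560 had 1.56, 1.46, 1.44 and 1.09. The call of Agxt was lost in 13 of the 15 fits (adjusted p up to 0.219, without France male replicate 3). None of these 5 was called in females. CG7560 was higher there by 0.77 (adjusted p = 0.000266 by limma), under the 2-fold limit.

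Of 32 subunits of the respiratory chain and ATP synthase, 29 had a positive difference, beside 3711 of all 10843 genes. The median was 0.58 in males and 0.72 in females. The comparison is not like for like, since 4932 of all genes but 0 of the 32 stayed under 5 in every male group. Only Cyt-c1, the cytochrome c1 subunit, was called, at 1.18 in both sexes. Its call in males was lost in 11 of the 15 fits (adjusted p up to 0.293, without France male replicate 3). Ctr1B, a copper importer, had 5.17, 3.76 and 5.92 in France males, against 1.93, 2.01 and 2.84, a difference of 2.82. It was the only called gene of 12 in metal handling and was also called in females, at 2.47. LysX, a lysozyme, was the only called gene of 25 in carbohydrate digestion and lysozymes, at 3.31. Its arrays overlapped with the other males, and the call was lost in 12 of the 15 fits (adjusted p up to 0.235, without France male replicate 1).

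Of 28 seminal fluid genes measured, 8 were called lower (28.6%) and 0 higher, beside 0.996% and 1.96% of all genes. At an unadjusted p below 0.05 these were 23 and 2. The median was -0.82, and 3 of 28 had a positive difference, beside 3711 of 10843. lectin-46Cb and lectin-46Ca, C-type lectins that are needed for the female's long-term response to mating, had differences of -1.68 and -1.27. lectin-46Cb had 6.15, 6.61 and 6.68 in France males, against 7.71, 8.15 and 8.51 in the other males.

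Qsox2, a sulfhydryl oxidase, had 6.15, 6.33 and 6.46 in France males, against 7.29, 7.89 and 8.34, a difference of -1.55. CG17575, a cysteine-rich secretory protein, Acp32CD, Acp53Ea and Acp29AB had -1.40, -1.36, -1.33 and -1.23. Acp76A, a serpin, was at -1.12 with overlapping arrays and was not called without France male replicate 2 or 3 (adjusted p up to 0.062). Acp53Ea overlapped as well, and the other 6 were separated from all other male arrays. The mean of 5 accessory gland markers, Acp53Ea included, lay between 10.57 and 10.84 on the France arrays, against 10.72 to 11.97 on the other male arrays. Of 5 genes of the ejaculatory duct and bulb 0 were called by limma (1 in each direction at an unadjusted p below 0.05), with a median of -0.40 and markers at 13.21 to 13.38, against 13.43 to 13.95. The part of gland size in these differences was not tested.

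Of 28 sperm and spermatid genes 1 was called (3.57%), near the share over all genes. It was Cyt-c1, a mitochondrial subunit named in that list as well. The median was -0.42, and 2 genes were higher and 15 lower at an unadjusted p below 0.05. Of 18 spermatocyte regulators, with 2 and 8 at that level, the 1 called was Taf12L, a testis form of a TATA-binding protein associated factor. It had 6.37, 6.26 and 6.44 in France males, against 4.35, 5.34 and 6.07, a difference of 1.07. With Antigua left out of the mean its difference was 0.79 and it was no longer over 2-fold. Ssl, the measured member of the Stellate family, had 4.13, 3.96 and 4.29 in France males, against 4.32, 4.54 and 5.84, and its difference of -0.61 was not called.

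Sensory genes gave 3 calls. Obp69a, an odorant-binding protein, had 5.29, 5.25 and 5.17 in France males, against 5.46, 7.33 and 8.08, a difference of -1.86. Hikone males lay near France, with a mean of 5.70, and France was not called against them alone. Antigua, Glasgow and Cambridge males had means of 6.99, 7.82 and 7.87. Obp83b, expressed in the antenna, had 8.81, 8.28 and 8.46, against 9.41, 9.87 and 10.43, a difference of -1.38. They were the called genes of 35 odorant-binding proteins (5.71%, beside 0.996% of all genes called lower). At an unadjusted p below 0.05, 7 of the 35 were higher and 23 lower. Of 16 phototransduction genes, 4 were higher and 5 lower at an unadjusted p below 0.05. Only trpl, a light-gated cation channel of the eye, was called (6.25%), with 7.27, 7.59 and 7.44 against 7.66, 9.14 and 9.92, a difference of -1.51. It was not called without France male replicate 1 or 3 (adjusted p up to 0.0318), and 3 eye markers had a mean of 10.55 to 10.64, against 10.64 to 11.57. All 46 chemoreceptors stayed under 5 in every male group, and 0 were called by limma, although all 46 were lower at an unadjusted p below 0.05 by small amounts, with a median of -0.19 beside -0.12 over all genes.

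Prolyl 4-hydroxylases, which hydroxylate proline in collagen-like proteins, gave 1 call up and 2 down among 18. These were 5.56% and 11.1%, beside 1.96% and 0.996% of all genes, and 2 were higher and 14 lower at an unadjusted p below 0.05. PH4alphaNE3 had 8.88, 8.69 and 8.76 in France males, inside a range of 2.84 to 10.67 in the other males, and its difference of 2.12 was not seen by its second probe set, at 0.00. With Antigua left out of the mean it was 0.95. CG18233 had 2.80, 2.75 and 2.78, against 2.95, 4.92 and 6.96, a difference of -2.19 whose call was lost when any of the 3 France arrays was left out (adjusted p up to 0.0482). CG15864 had 3.65, 3.64 and 4.11, against 4.58, 5.00 and 5.42, a difference of -1.19.

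Several lists had 0 calls by limma in males. They included 28 cytoplasmic ribosomal proteins, with a median difference of 0.00 and 7 higher and 4 lower at an unadjusted p below 0.05, and 15 heat shock proteins, with a median of -0.05 and 3 and 6. The 9 circadian clock genes had a median of -0.12 and 1 and 4, and the 12 genes of sex determination and dosage compensation one of -0.05 and 1 and 2. The 26 Jonah and trypsin proteases of the gut had a median of 0.17 and 2 and 5, and 11 larval serum and fat body proteins one of 0.20 and 3 and 1. The 29 genes of ecdysone and juvenile hormone had a median of -0.17, with 1 and 17, and 16 pheromone and hydrocarbon enzymes one of -0.21, with 3 and 5. An uncalled gene is not shown to be equal between the groups.

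Some of the genes set apart lay side by side in the genome. The deposited files name no build, so RefSeq's Release 6 table was used for order only. Runs of genes set apart in the same direction, with at most 1 measured gene between them, numbered 15, and 2 of them held 3 or more genes. The longest, on 2L, held Tep3, CG13793, CG13794, CG13795 and CG13796, of which the last 4 encode proteins of the SLC6 family of neurotransmitter transporters. CG13794 had 7.41, 7.85 and 7.62 in France males, against 2.98, 3.26 and 5.91 in the other males. The differences of the 4 were 1.15, 3.83, 2.34 and 1.23. The gene between them and Tep3, Ntl, of the same transporter family, was at -0.49 and not called. The calls of CG13793 (without France male replicate 1, difference 0.89) and CG13796 (in 5 of the 15 fits, adjusted p up to 0.0557 without France male replicate 2) were lost when single arrays were left out.

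The other run of 3 held GV1, Cpr62Bb and Cpr62Bc on 3L, with Cpr62Ba at 0.16 between them. The pairs included vkg with Col4a1, Cpr49Ab with CG13155, Cht8 with Cht4, lectin-46Ca with lectin-46Cb, alpha-Est8 with alpha-Est9, and Sems with CG11037, both lower, at -1.45 and -1.43. By chromosome, the X held 36 of the genes set apart as higher and 4 of those set apart as lower among 1763 measured genes (2.04% and 0.227%). The autosomal arms had 1.47% to 1.82% higher and 0.772% to 1.06% lower. The 57 genes of chromosome 4 gave 1 higher, Gat, a transporter of the neurotransmitter GABA, with a difference of 3.03.

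France females were then compared with the females of the other strains. The female arrays did not enter the male differences, but they shared in the estimate of spread on which the male calls rest. Over all probe sets, 135 were called higher in France females (0.967%) and 49 lower (0.351%). Of the 221 set apart as higher in males, 47 were called higher in females (21.3%), and of the 90 set apart as lower, 13 were called lower (14.4%). In the opposite direction 0 were called in females by limma, and 2 of the 221 and 0 of the 90 had an unadjusted p below 0.05. The female difference was positive for 207 of the 221 (93.7%, beside 27.2% of all probe sets) and negative for 90 of 90 (beside 72.8%). Median female differences were 0.74 and -0.30, against 1.48 and -1.47 in males.

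Separate fits of male and female arrays, a setting chosen after the data were seen, left the female arrays out of the choice and gave fewer calls. The 15 male arrays alone set 164 probe sets apart as higher and 72 as lower. Of these, the 14 female arrays alone called 15 higher (9.15%, beside 0.243% of all probe sets) and 9 lower (12.5%, beside 0.15%). In the opposite direction limma called 0, and 2 of the 164 and 0 of the 72 had an unadjusted p below 0.05. The female difference had the sign of the male one for 158 of 164 and 72 of 72. Cyp6a9, CG11034, trx, Mlp60A, CG10208, Cda9 and Def were called in both sexes in this way, and CtsK2 was called in males only (adjusted p in females 0.513).

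**Figure D4:**
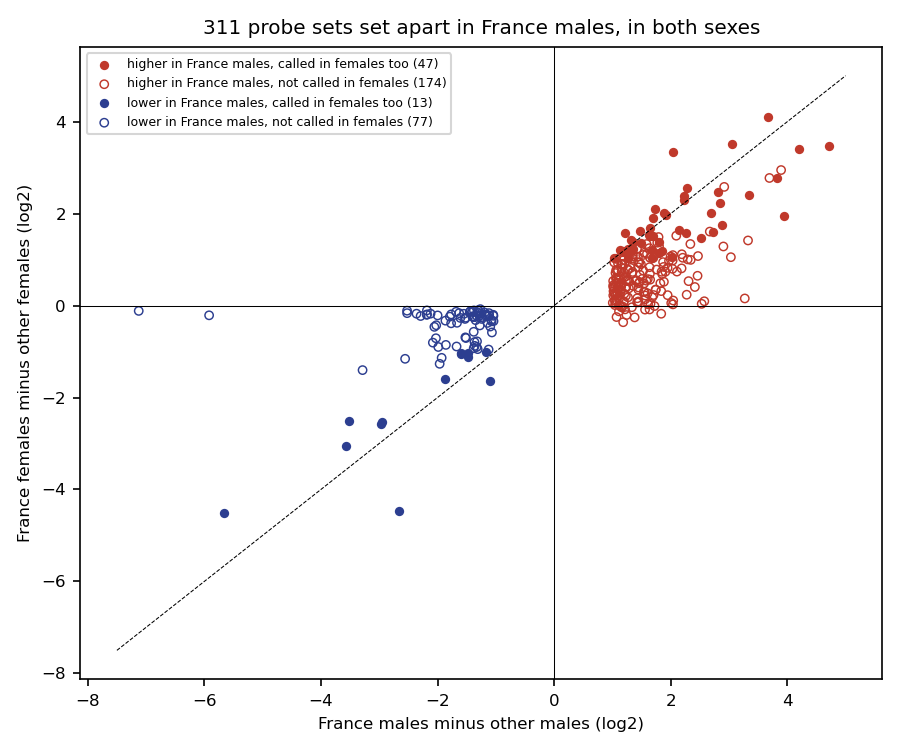
Difference of France from the other strains in males (horizontal) and females (vertical), log2, for the 311 probe sets set apart in males; filled points were also called in females (47 and 13) and the dashed line marks equal differences. Many blue points lie on the line of no difference in females, among them CG11598 at -0.12.

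Many of the probe sets were dim in females. Of the 90 set apart as lower, 57 stayed under 5 in all 4 other female groups (63.3%), as did 115 of the 221 (52.0%), beside 52.8% of all probe sets. Among the 33 of the lower set with at least 1 other female group at 5 or more, 13 were called in females. In the other strains, 67 of the 90 (74.4%) and 19 of the 221 (8.6%) were over 2-fold higher in males than in females, against 14.1% of all probe sets. Within France these were 40 of 90 and 103 of 221, against 12.6%. The male arrays that chose the genes enter both figures, in opposite directions, so these shares are a description.

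The difference between the sexes was itself tested. Of all probe sets 85 were called for it (0.609%), among them 33 of the 221 and 26 of the 90. CG11598 and lncRNA:CR32661 gave the largest, at -7.01 and -5.71. Females of every strain were low at both genes, so France females had little room to be lower. Among the 221 set apart as higher, Cda4, CG9377 and lectin-33A gave the largest, at 3.12, 2.49 and 2.48, and Tep3 had 2.01. The brightest probe set of Cda4 gave 1.30 and was not called for the difference between the sexes. CG9377 had 5.96, 5.24 and 5.37 in France males, against 2.72, 2.97 and 3.37 in the other males, and 2.88 to 2.91 in France females. For lectin-33A, a C-type lectin, France males had 6.62, 5.01 and 5.09, against 2.71, 3.03 and 3.19, and France females 3.06 to 3.34. These male values chose the genes, so the sizes are a description.

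**Figure D5:**
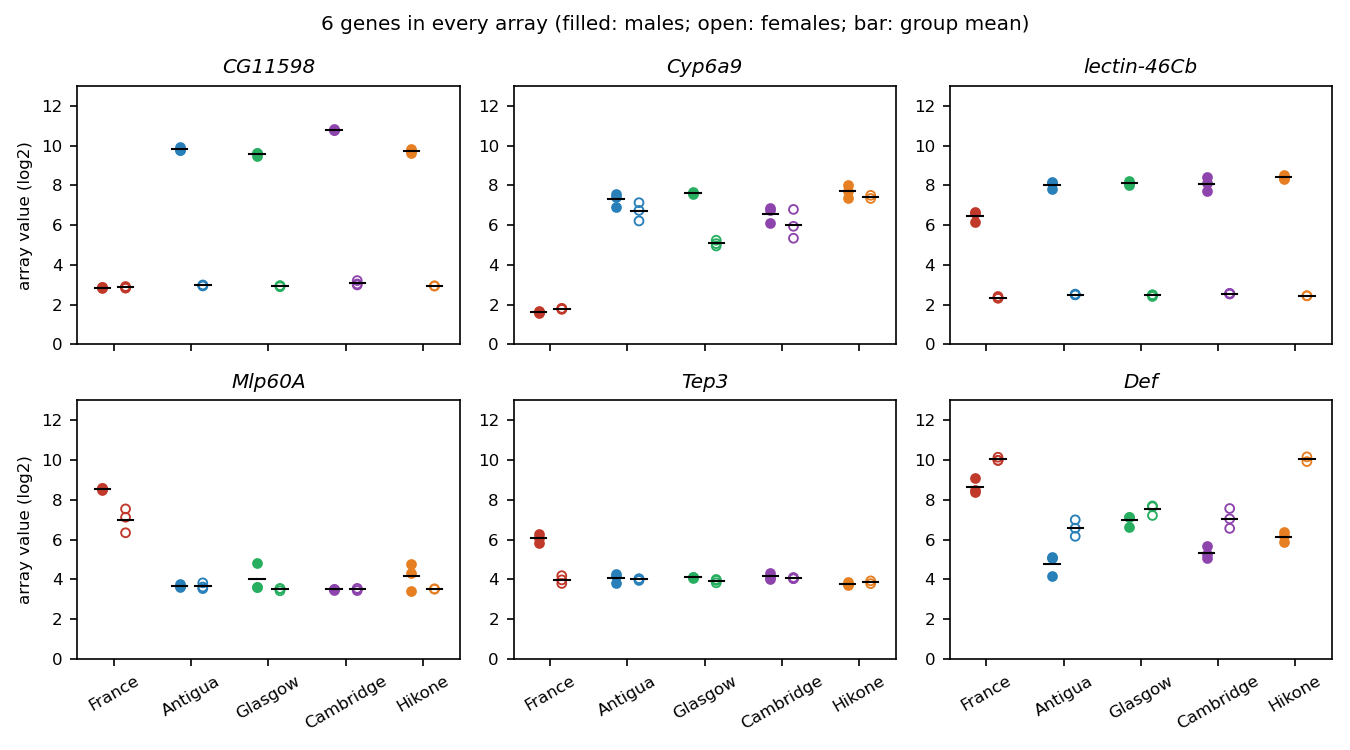
Array values (log2) of 6 genes in all 29 arrays by strain, with males filled and females open, and a bar at each group mean. CG11598 and lectin-46Cb are low in females of every strain, Cyp6a9 is low in France in both sexes, Mlp60A is high in France in both, Tep3 is high in France males, and Def is high in France of both sexes and in Hikone females.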

How the data were processed

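The authors hybridised RNA of 30 samples to Affymetrix Drosophila arrays and discarded 1. The deposited values are log2 intensities from GCRMA, a summary with probe GC correction and quantile normalization (version not given in the sources used here), and were used without further scaling or filter. Arrays give no counts, so the number of arrays limits the precision.

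A linear model of 10 group means (strain by sex) was estimated by limma 3.58.1, run in R 4.3.3, and France males were contrasted with the mean of the 4 other male group means. P-values were adjusted by Bonferroni over 13966 probe sets. SE and p measure the spread between groups of flies of 1 stock. Symbols came from the platform table, and 12393 of 12442 were found in RefSeq's Release 6 table. For lists, each gene was read by its brightest probe set.

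Genes were named by a rule: the 15 set apart in each direction farthest from the nearest other male group, and up to 4 called members per list. Genes named outside it (members of runs and families, other called list members, Uhg1, Gat) were chosen after their values were seen. The members and lists were chosen with earlier results of these data known. On simulated data, planted differences of 1.2 and 2 (log2, 100 probe sets each of 13966) were recovered at 78% and 95%, with 0 false calls.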

Additional observations from a re-analysis of the deposited data

Results flagged for a closer look

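For 27 genes named in the text, 19 of the 65 named by the rule and 8 others, the difference of France from the other strains itself differed between males and females by limma's test of the interaction. Each value is the male difference minus the female difference, log2. Negative values, with France lower in males, were found at CG11598 (-7.01), lncRNA:CR32661 (-5.71), CG11815 (-2.36), CG15548 (-2.18), CG42564 (-2.08), lectin-46Cb (-1.55), Qsox2 (-1.37), CG7694 (-1.32), CG11037 (-1.31), Sems (-1.31), CG17575 (-1.27) and CG17097 (-1.19). Positive values, with France higher in males, were found at Cda4 (3.12), CG9377 (2.49), lectin-33A (2.48), PH4alphaNE3 (2.30), Nmdmc (2.02), Tep3 (2.01), Cpr97Ea (2.01), Cpr49Ab (1.99), CG13722 (1.81), Cpr49Ah (1.72), Cht2 (1.55), CG3999 (1.34), psh (1.33), Taf12L (1.32) and Shmt (1.10). Most of these genes were named for their male differences, on the same male arrays. The value of Cda4 is that of the probe set with a male difference of 3.27. Its brightest probe set gave an interaction of 1.30, which was not called (adjusted p = 0.0168 by limma). PH4alphaNE3 was read by its brightest probe set, and the second probe set gave a male difference of 0.00. At CG11598, lncRNA:CR32661, CG11815, lectin-46Cb, Qsox2, CG17575 and CG17097 the group means of the other females lay between 2.05 and 3.41. France females had little room to be lower there, so the interaction mostly repeats the male difference. CG15548 and CG42564 were also under 5 in all female groups. The group means of the other females were 3.85 to 4.07 and 3.77 to 3.88, and those of France females 3.78 and 3.71. CG7694 was brighter in the other females, at 6.99 to 7.7. Groups of 3 arrays were not tested for single outlying samples.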

How the results depend on the processing

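With Benjamini-Hochberg in place of Bonferroni, 439 probe sets were called higher and 175 lower, 170 of the set apart were also called in females and 208 for the difference between the sexes. When each male array was left out in turn, counts called higher ran from 167 to 255 and lower from 90 to 123. Those set apart ran from 151 to 231 and from 76 to 97, those also called in females (60 in all) from 47 to 63, and those called for the difference between the sexes from 72 to 90. In all 15 of these fits, 122 of the 221 and 67 of the 90 kept their call, as did 49 of the 62 called genes named by the rule. A fit with a replicate block gave 232 called higher and 113 lower, 202 and 89 set apart, 53 also in females and 78 for the sexes. Same-numbered samples deviated together weakly at most (30 pairs, r from -0.20 to 0.21, median 0.06, 8 over 0.1). France male replicate 1 had r from 0.05 to 0.19 with replicate 1 of the other strains, and replicate 2 from -0.20 to 0.17. A weak sharing by replicate number is thus not excluded. In the fit with the replicate block 7 genes named by the rule, Cyt-c1, Cyp28d1, yellow-e, Hml, CG6283, serp and LysX, lost their call. With quantile normalization repeated, 225 were called higher and 119 lower, and 192 and 93 were set apart. Of the 311 set apart in the main fit 262 stayed so, and the median difference was -0.05. Genes named by the rule that lost their call were CG18233, Cyt-c1, Cyp28d1, Hml, CG6283, serp and LysX. With the 15 male arrays fitted alone 184 were called higher and 84 lower, and with Cambridge left out of the mean 199 and 112. Fitted alone, the male arrays kept 203 of the 311 probe sets set apart in the main fit. Among genes named by the rule they lost the calls of CG12376, CG18233, CG15864, Cyt-c1, psh, Cyp28d1, yellow-e, Hml, Ctr1B, serp and Cpr62Bc. With a strain left out of the mean, calls were lost at 6 genes named by the rule for Antigua, 5 for Glasgow, 7 for Cambridge (Cyp12d1-d, trpl, Cyt-c1, Cyp28d1, Cyp6g1, CG6283 and LysX) and 6 for Hikone. The causes were not tested. No gene named by the rule changed direction under any of the 13 other settings or the 15 single omissions. Genes named outside the rule were not part of this check. With each sex fitted on its own arrays, added after the data were seen, 24 of those set apart were also called in females; this fit has fewer arrays. The array weights did not converge fully.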
